A study of Mus with 7 samples.

Results

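Ccl2, Ccl3, Ccl4, Ccl5, Ccl6, Ccl7 and Ccl9 encode CC chemokines and were followed in single cells of fetal liver-derived macrophages (FLMs). They were taken by gene symbol, 7 of the 31053 genes in the count tables, with earlier results of these data known. All 7 had UMIs (unique molecular identifiers, 1 per captured molecule) in every library. FLMs are macrophages grown from dissociated C57BL/6J mouse fetal livers in medium with 30 ng/mL GM-CSF, a growth factor. The paper likens the model to an inflammatory macrophage derived from monocytes. Con cells were kept in 10% FBS without any treatment. The other 6 libraries shared a 24 h period in 0.25% FBS with 8.3 µM BSA, either alone (Veh) or carrying 25 µM DHA, an omega-3 fatty acid, and then received 20 ng/mL LPS for 0, 1 or 4 h. Library names give the hour of LPS last, as in Veh.LPS.0 and DHA.LPS.4, and the values of a series are given in the order 0, 1 and 4 h. LPS is the bacterial lipid that macrophages sense through Toll-like receptor 4. The cells are a long-term culture rather than cells taken from a tissue, and Con differs from Veh.LPS.0 in serum, BSA and time together, which cannot be told apart.

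Chemokines are small secreted proteins that draw leukocytes along a gradient by way of G protein-coupled receptors, and the CC class is named for a pair of adjacent cysteines near the start of the mature protein. Ccl2 and Ccl7 act on Ccr2 and bring monocytes into tissue. Ccl3, Ccl4 and Ccl5 draw monocytes, T cells and NK cells, and Ccl3 and Ccl5 act on Ccr1. Ccl6 and Ccl9 are rodent chemokines that act on Ccr1 and are known from macrophages and other myeloid cells. In macrophages LPS raises several of these messages through NF-κB, and Ccl5 is also a target of the interferon response.

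Each condition was sequenced as 1 library without replicates. No test was therefore made, and every interval covers counting error only. Cells were barcodes with more than 20000 UMIs, at least 2000 genes and under 20% mitochondrial UMIs, which left 692 to 3073 cells per library and 22045775 to 125716982 UMIs. These limits removed 37.5% of the barcodes of Con, 44.4% to 59.4% of those of Veh and 81.5% to 87.9% of those of DHA, so the DHA cells are the smaller remainder. All 9 macrophage markers were found in every library, and no cell held 3 markers of any other cell type looked for. No cells of another type were thus found in which to measure free RNA, so the shares of positive cells have no such background beside them. Some lists held only 3 markers, so this rule could miss such cells. At most 4 barcodes were shared by any pair of libraries. No doublet caller was run.

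All 7 genes lie on chromosome 11 (GRCm38.p6, RefSeq positions). Ccl2 (ENSMUSG00000035385) spans 82035577 to 82037452 and Ccl7 (ENSMUSG00000035373) lies 8.26 kb further, at 82045712 to 82047525. After 29 other protein-coding genes the second group begins with Ccl5 (ENSMUSG00000035042, 83525778 to 83530518). It goes on with Ccl9 (ENSMUSG00000019122, 83572917 to 83578636) and Ccl6 (ENSMUSG00000018927, 83587886 to 83593087). Ccl3 (ENSMUSG00000000982, 83647843 to 83649378) and Ccl4 (ENSMUSG00000018930, 83648624 to 83664683) end the group. The RefSeq record of Ccl4 is 16060 bases long, includes a predicted transcript and overlaps that of Ccl3. Counting used the genes under the ENSMUSG identifiers above. Whether those overlap or lie on the same strand was not checked, so any effect on the counts of these 2 genes is unknown.

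Before LPS the members ranged widely, from place 185 among all genes for Ccl2 to place 10000 for Ccl5 in Con, and in Veh.LPS.0 from place 109 for Ccl4 to place 9900 for Ccl5. The 7 genes together held 0.153% of all UMIs in Con, and 0.449%, 1.23% and 4.13% along the Veh series. The DHA series gave shares of 0.521%, 1.04% and 3.72%. Each UMI marks 1 molecule whatever the length of the message, so levels in CPM (counts per 1000000 UMIs of the library) were compared between genes without correction for length. Other differences between genes in capture or counting were not examined. At 4 h Ccl3 was the 8th most abundant of all genes in Veh and the 9th in DHA, Ccl2 the 9th and the 7th, Ccl4 the 10th and the 11th, and Ccl9 the 22nd and the 30th. The order in Veh.LPS.4 was Ccl3, Ccl2, Ccl4, Ccl9, Ccl7, Ccl5 and Ccl6, and in DHA.LPS.4 Ccl2 came before Ccl3.

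**Figure D1:**
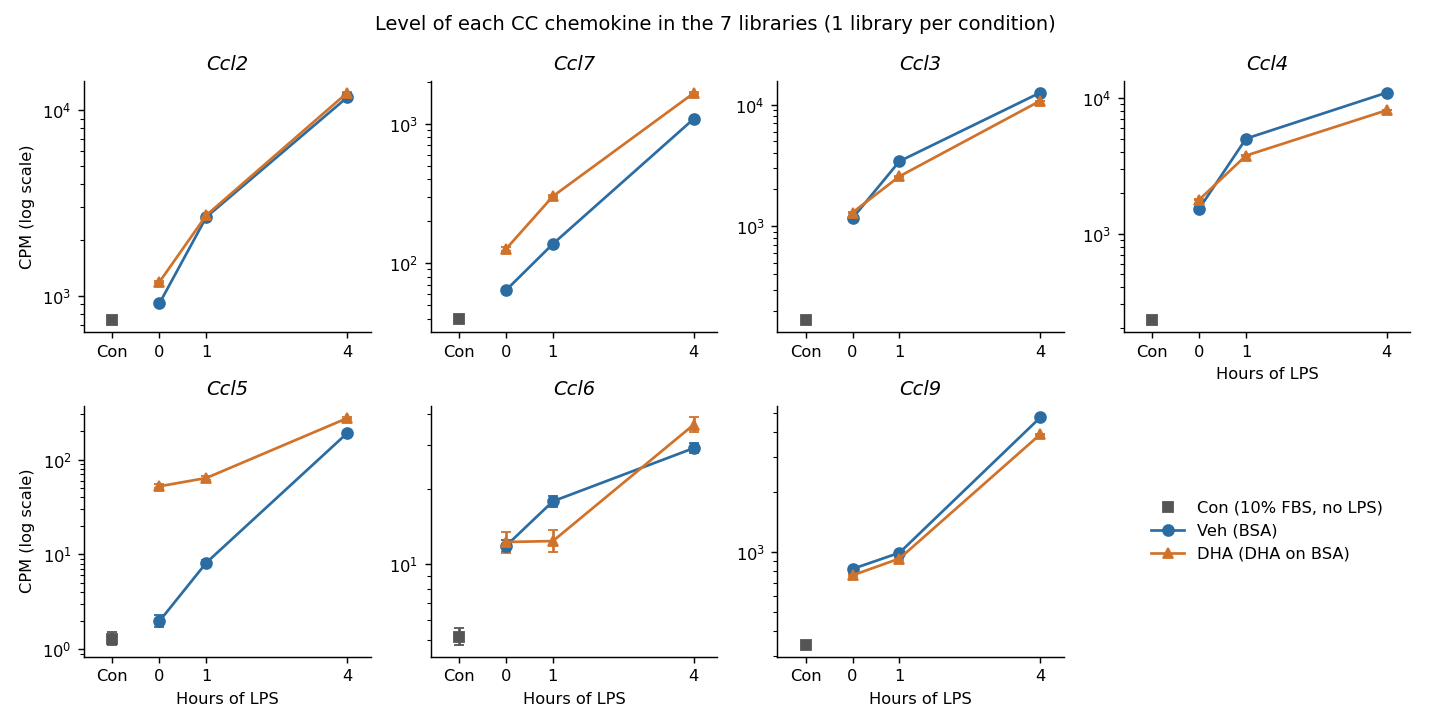
CPM (log axis) of each chemokine against hours of LPS, with Con at the left, Veh as circles and DHA as triangles. Each point is 1 library and its bar the 95% counting interval. All 7 genes have their highest level at 4 h, Ccl5 starts far higher with DHA than with Veh, and the Ccl7 points of DHA lie above those of Veh at every hour.

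Ccl2, the main monocyte attractant, stood at 740 CPM in Con and, along the Veh series, at 910, 2658 and 11723 CPM after 0, 1 and 4 h. With DHA it had 1187, 2718 and 12407 CPM at 0, 1 and 4 h. It was the member with the smallest ratio of Veh.LPS.0 to Con, 1.23 (95% interval 1.22 to 1.24), and among the most strongly raised with LPS, by 12.9-fold (12.8 to 13.0) at 4 h in Veh and 10.5-fold (10.3 to 10.6) in DHA. Ccl7, its neighbour on the chromosome, stood at 39.7 CPM in Con and, along the Veh series, at 63.8, 137 and 1083 CPM after 0, 1 and 4 h. With DHA its levels were 126, 301 and 1658 CPM. Ccl7 was thus present at under 1/10 of the level of Ccl2 in Con and Veh, and its rise at 4 h, 17.0-fold (16.5 to 17.4) in Veh and 13.2-fold (12.8 to 13.6) in DHA, came mostly after the first hour. In the cells without a UMI of the proliferation genes Mki67 and Top2a, a split chosen after seeing the data, the log2 ratio of Veh.LPS.4 to Veh.LPS.0 was 2.49 in place of 3.69 for Ccl2 and 2.46 in place of 4.09 for Ccl7. That of DHA.LPS.4 to DHA.LPS.0 was 2.68 in place of 3.39 for Ccl2 and 2.73 in place of 3.72 for Ccl7.

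Ccl3 and Ccl4, which encode the inflammatory proteins MIP-1α and MIP-1β, were the members with the largest ratio of Veh.LPS.0 to Con. Ccl3 stood at 168 CPM in Con and, along the Veh series, at 1160, 3414 and 12558 CPM after 0, 1 and 4 h, and 1292, 2565 and 10751 CPM with DHA. Ccl4 stood at 230 CPM in Con and, along the Veh series, at 1524, 5033 and 11013 CPM after 0, 1 and 4 h, and 1777, 3771 and 8159 CPM with DHA. Without any LPS, Ccl3 was 6.89-fold (6.79 to 6.996) and Ccl4 6.63-fold (6.55 to 6.72) higher in Veh.LPS.0 than in Con, places 9 and 11 from the top among the 8252 genes compared. In cells without Mki67 and Top2a the log2 ratio to Con was smaller, 1.95 in place of 2.79 for Ccl3 and 1.60 in place of 2.73 for Ccl4. The log2 rise over 4 h in Veh was also smaller there, 2.47 in place of 3.44 for Ccl3 and 1.88 in place of 2.85 for Ccl4, and in DHA 2.40 in place of 3.06 and 1.59 in place of 2.20. Ccl4 was the more abundant of the pair up to 1 h and Ccl3 at 4 h, in both Veh and DHA.

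Ccl5 (RANTES) was the rarest member in the libraries without DHA up to 1 h of LPS. It stood at 1.29 CPM in Con and, along the Veh series, at 1.97, 8.18 and 190 CPM after 0, 1 and 4 h. With DHA it had 52.2, 63.9 and 274 CPM. In Veh its level at 4 h was 96.3-fold (83.5 to 111) that at 0 h, the largest ratio of any member in any comparison, and in DHA 5.24-fold (4.97 to 5.52), from a higher start. In cells without Mki67 and Top2a the log2 rise was 5.05 in place of 6.59 in Veh and 1.46 in place of 2.39 in DHA.

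Ccl6 and Ccl9, both ligands of Ccr1, differed widely in level. Ccl9 stood at 344 CPM in Con and, along the Veh series, at 823, 993 and 4745 CPM after 0, 1 and 4 h, and 765, 928 and 3905 CPM with DHA. It was the slowest of the abundant members, with a ratio of 1.21 (1.19 to 1.22) in Veh and 1.21 (1.19 to 1.23) in DHA after 1 h of LPS and most of its rise between 1 and 4 h. Ccl6 stood at 5.13 CPM in Con and, along the Veh series, at 11.8, 17.9 and 29.1 CPM after 0, 1 and 4 h, and 12.3, 12.4 and 36.2 CPM with DHA. Its ratio after 4 h of LPS, 2.46 (2.28 to 2.65) in Veh and 2.94 (2.62 to 3.32) in DHA, was the smallest of the family.

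A gene was called higher or lower purely on size, when its CPM differed by over 1.5-fold and its UMIs were found in 25% or more of the cells in 1 of the libraries compared. Between Veh.LPS.0 and Con, 5 members could be counted and 4 were higher, all but Ccl2, where 9.31% of all genes compared were higher. Ccl7 entered only through Veh.LPS.0, where it is higher. The median log2 ratio of those 5 was 1.26, against -0.07 over all genes. In cells without Mki67 and Top2a Ccl9 was no longer past 1.5-fold, with a log2 ratio of 0.43 in place of 1.26, and that of Ccl7 turned to -0.41. Ccl5 and Ccl6 were in too few cells to be counted, with ratios of 1.53 (1.24 to 1.90) and 2.31 (2.09 to 2.54).

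After 1 h of LPS in Veh, 4 of 5 members were higher, against 4.15% of all genes, and the same count of 4 of 5 in DHA stood against 4.66%. The member not counted as higher was Ccl9 in both. After 4 h against 0 h, all 7 members were higher in Veh, against 10.2% of all genes, with a median log2 ratio of 3.44 beside -0.36 for all genes. In DHA, 6 of 6 were higher at 4 h than at 0 h, against 9.64%, with a median log2 ratio of 2.72 beside -0.29, and Ccl6 could not be counted. Between 1 and 4 h, 7 of 7 were higher in Veh, against 7.98%, and 6 of 6 in DHA, against 6.97%. In each of these 4 comparisons Ccl5 entered only through the 4 h library, where it is high, and so did Ccl6 in Veh, so that 5 of 5 of the remaining members were higher. In cells without Mki67 and Top2a the rise of Ccl7 after 1 h in Veh was 0.20 on the log2 scale in place of 1.10, and that of Ccl4 from 1 to 4 h was 0.55 in place of 1.13 in Veh and 0.52 in place of 1.11 in DHA, all short of 1.5-fold, while Ccl6 turned to -0.51 from 1 to 4 h in Veh. No member was called lower in any of these 7 comparisons over all cells.

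The hour at which each gene rose separated the members. Of the log2 rise to 4 h in Veh, Ccl4 had gained 1.72 of 2.85 after 1 h and Ccl3 1.56 of 3.44. Ccl2 had gained 1.55 of 3.69 and Ccl7 1.10 of 4.09. Ccl5 had gained 2.05 of 6.59, Ccl6 0.59 of 1.30 and Ccl9 0.27 of 2.53. Over all cells Ccl4 and Ccl9 thus stood at the 2 ends in Veh, with Ccl4 early and Ccl9 late. In cells without Mki67 and Top2a, Ccl4 had gained 1.34 of 1.88, Ccl9 0.32 of 2.26 and Ccl7 0.20 of 2.46. Ccl6 stood at 1.65 after 1 h and 1.14 after 4 h there, so that by these ratios Ccl6 came first and Ccl7 last. The Ccl6 UMIs were held by few cells, however. Among all kept cells, thinned, 9 cells of Veh.LPS.0 and 7 of Veh.LPS.1 held 50% of them. With a mitochondrial limit of 10%, Ccl6 had gained 0.22 of 1.31 in Veh. The place of Ccl6 in Veh thus depended on the processing and is not taken as its timing. Over all cells in DHA, the log2 ratio after 1 h was 1.09 for Ccl4, 0.99 for Ccl3, 1.20 for Ccl2, 1.26 for Ccl7 and 0.28 for Ccl9. Ccl5 had gained 0.29 of 2.39 there, about as late as Ccl9. Ccl6 had gained 0.01 (-0.19 to 0.21) of 1.56, later than Ccl9, but its place depended on the processing. With thinned cells Ccl6 had gained 0.41 of 1.81 and Ccl9 0.35 of 2.46. In cells without Mki67 and Top2a the values in DHA were 0.82 of 1.71 and 0.28 of 2.11. Over all barcodes Ccl6 stood at -0.33 after 1 h. The comparisons with 0 h share the 0 h library, and those of the DHA and Veh arms share none.

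Between DHA and Veh at the same hour the family did not move as a block. At 0 h 1 of 5 members was higher and 0 were lower, where 1.08% of all genes were higher and 0.949% lower. At 1 h the counts were again 1 of 5 higher and 0 lower, against 1.33% higher and 1.73% lower. At 4 h 1 of 7 was higher and 0 lower, against 2.22% higher and 2.42% lower. The member counted as higher was Ccl7 at all 3 hours. The median log2 ratio of the members counted was 0.22, -0.10 and 0.08 at 0, 1 and 4 h, beside -0.05, -0.05 and 0.08 over all genes.

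Ccl7 was 1.97-fold (1.90 to 2.05) higher with DHA than with Veh at 0 h, 2.20-fold (2.14 to 2.26) higher at 1 h and 1.53-fold (1.51 to 1.55) higher at 4 h. At 4 h it lies just past the limit, and with TMM or median-of-ratios scaling it falls just short, with log2 ratios of 0.49 and 0.54 in place of 0.61. Over all barcodes it falls short at both 4 h, with 0.50, and 0 h, with 0.57 in place of 0.98. The median log2 ratio of all genes was also lower over all barcodes, -0.23 at 0 h and -0.17 at 4 h in place of -0.05 and 0.08. At 0 h it also falls short in cells without Mki67 and Top2a, with 0.35, and with thinned cells it is in too few cells to be counted. Ccl2, which shares the receptor Ccr2, had ratios of 1.30 (1.29 to 1.32), 1.02 (1.01 to 1.03) and 1.06 (1.05 to 1.06), the last of which turns below 1 with TMM factors (log2 ratio -0.04). That at 1 h turns below 1 with thinned cells (log2 ratio -0.01) and with the mean of per-cell CPM (-0.003). It also does so in cells without Mki67 and Top2a (-0.02). In cells without Mki67 and Top2a the ratio of Ccl2 at 0 h also turned, to a log2 ratio of -0.14 in place of 0.38.

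Ccl3 and Ccl4 had ratios of DHA to Veh above 1 before LPS and below 1 after it. For Ccl3 they were 1.11 (1.10 to 1.13) at 0 h, 0.751 (0.746 to 0.757) at 1 h and 0.856 (0.852 to 0.860) at 4 h. For Ccl4 they were 1.17 (1.15 to 1.18), 0.749 (0.745 to 0.754) and 0.741 (0.737 to 0.745). None of these passed 1.5-fold in either direction. Over all barcodes, those removed included, the log2 ratio at 4 h was 0.19 for Ccl3 and 0.00 for Ccl4. The lower level with DHA at 4 h thus holds among the cells that passed the limits and not over all barcodes. At 1 h the log2 ratio over all barcodes was nearer 0, -0.10 in place of -0.41 for Ccl3 and -0.06 in place of -0.42 for Ccl4. Ccl9 had ratios of 0.929 (0.916 to 0.942), 0.935 (0.923 to 0.948) and 0.823 (0.817 to 0.829). Ccl6 had ratios of 1.04 (0.926 to 1.16), 0.694 (0.620 to 0.774) and 1.24 (1.14 to 1.35). Over all barcodes the log2 ratios of Ccl9 were 0.01, 0.08 and 0.05 at 0, 1 and 4 h, and that of Ccl6 at 4 h was -0.21, each on the other side of 0 from the kept cells. The median log2 ratio of all genes over all barcodes was -0.23, -0.29 and -0.17, in place of -0.05, -0.05 and 0.08. For Ccl6 at 1 h the log2 ratio was -1.30 in place of -0.53 in cells without Mki67 and Top2a.

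**Figure D2:**
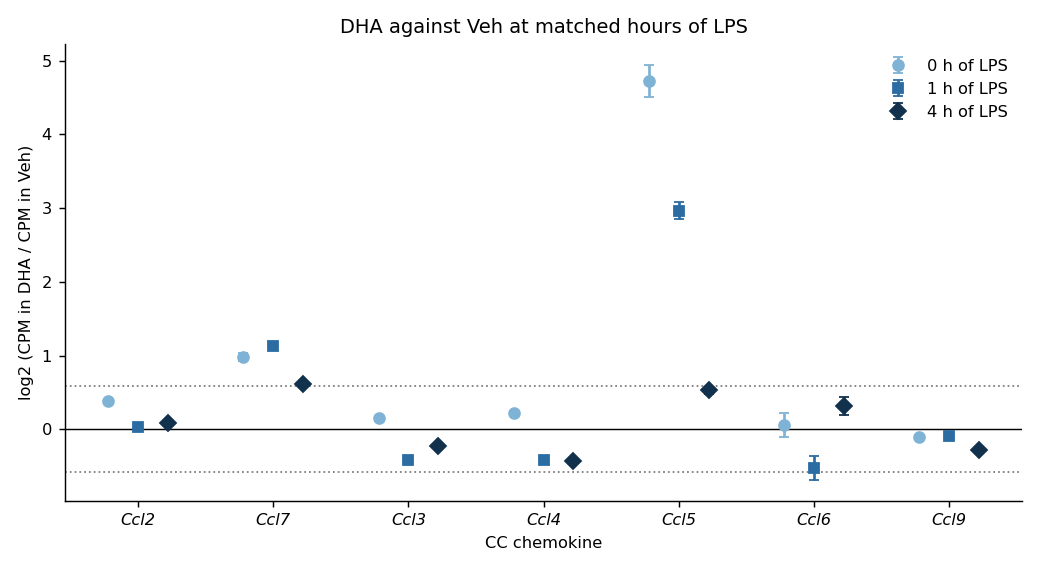
log2 of CPM in DHA over CPM in Veh for each chemokine at 0, 1 and 4 h of LPS, with 95% counting intervals; dotted lines mark 1.5-fold. Ccl5 lies far above the rest at 0 and 1 h, Ccl7 lies above the upper line at all 3 hours, and Ccl3 and Ccl4 lie above 0 before LPS and below 0 after it.

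Ccl5 had a ratio of DHA to Veh of 26.5 (22.8 to 30.8) at 0 h, 7.82 (7.19 to 8.50) at 1 h and 1.44 (1.39 to 1.49) at 4 h. At 0 and 1 h it was in too few cells to be counted, and its ratio exceeded that of every one of the 8434 and 7794 genes that were. Other genes in too few cells, such as Mmp12 (levels below), were left out of that comparison. Its place among all genes is therefore not known. Over all barcodes its log2 ratios were 4.03, 2.41 and 0.16 at 0, 1 and 4 h, in place of 4.73, 2.97 and 0.53. With thinned cells that at 0 h was 5.36. They were 4.86, 3.75 and 1.27 in cells without Mki67 and Top2a, the last past 1.5-fold. The Ccl5 UMIs were held by few cells. In DHA.LPS.0, 32 of 698 cells held a Ccl5 UMI once each cell had been thinned at random to 20000 UMIs, and 3 cells held 50% of all its UMIs. The single highest cell held 24.8% of them, and without it the level was 39.4 CPM, against 1.44 CPM in Veh.LPS.0 without its own highest cell.

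Among cells thinned to that depth, those with at least 10 Ccl5 UMIs were 2.15% (exact binomial 95% interval 1.21 to 3.52, 15 cells) of DHA.LPS.0 and 0.161% (0.0439 to 0.412, 4 cells) of Veh.LPS.0. They were 3.27% (2.15 to 4.76, 26 cells) of DHA.LPS.1 and 0.358% (0.179 to 0.640, 11 cells) of Veh.LPS.1. At 4 h they were 9.54% (7.45 to 11.97, 66 cells) of DHA.LPS.4 and 8.26% (6.62 to 10.1, 82 cells) of Veh.LPS.4. The intervals cover the cells of 1 library each and do not bear on a difference between conditions. Removed barcodes of DHA.LPS.0 held Ccl5 at 13.6 CPM, below the kept cells, and those of Veh.LPS.0 at 2.96 CPM, above them.

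**Figure D3:**
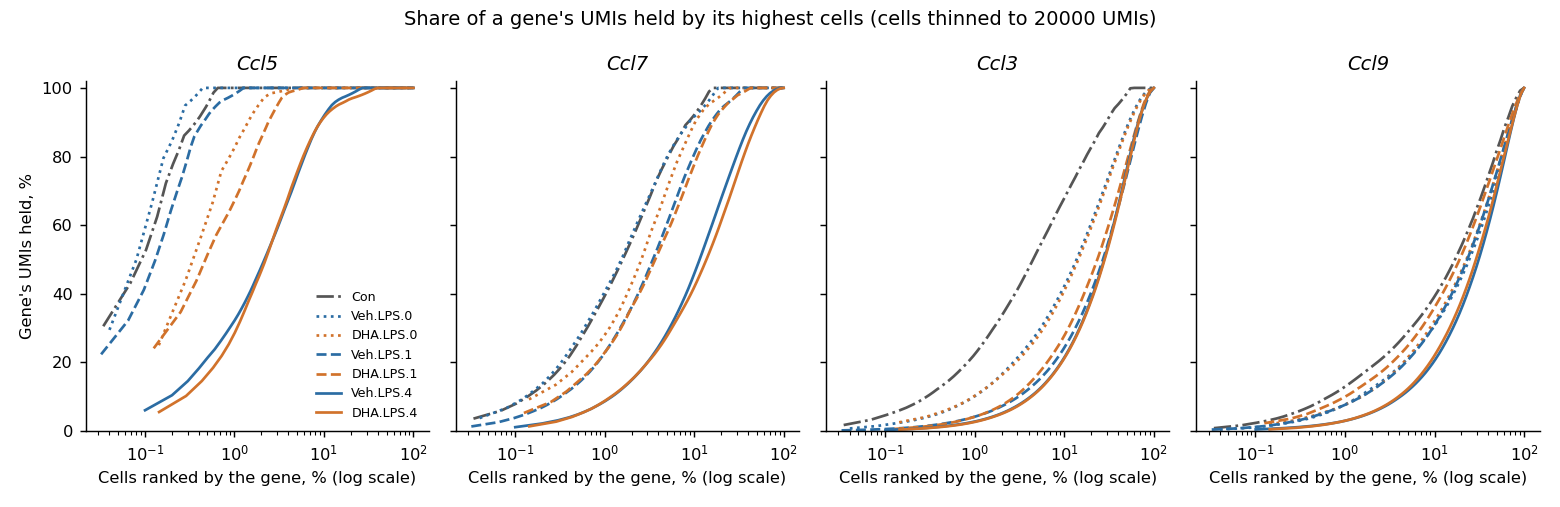
Share of the UMIs of Ccl5, Ccl7, Ccl3 and Ccl9 held by the highest cells, against the percentage of cells ranked from the highest down (log axis), in each library. The Ccl5 curves rise at the far left, where 3 cells hold 50% in DHA.LPS.0, and move right with LPS, whereas those of Ccl9 lie close together in all libraries.

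The share of cells with a UMI was counted at the same thinned depth. For Ccl5 it was 0.619% in Con, 0.443%, 1.27% and 26.4% in Veh at 0, 1 and 4 h, and 4.58%, 5.91% and 38.6% in DHA. At full depth the shares at 4 h were 42.8% in Veh and 46.8% in DHA, where the median depth was 56239 and 29631 UMIs. For Ccl7 it was 15.4% in Con, 18.3%, 35.2% and 90.7% for the Veh series and 24.8%, 42.5% and 97.1% for the DHA series, with 22.5%, 25.8%, 41.1%, 97.3%, 34.4%, 51.2% and 98.1% at full depth in the same order. UMIs of Ccl5 were thus found in a minority of cells at either depth, and those of Ccl7 in most cells at 4 h. A cell without a UMI may still hold the message.

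Ccl6 UMIs were likewise found in a minority of cells. Its share was 4.20% in Con, 7.62%, 9.47% and 22.5% for the Veh series and 8.02%, 10.4% and 18.5% for the DHA series, with 41.6% in Veh.LPS.4 and 24.7% in DHA.LPS.4 at full depth. Ccl3 was found in 55.0% of Con cells, 96.5% of Veh.LPS.0 cells and 97.3% of DHA.LPS.0 cells, and Ccl4 in 49.7%, 95.4% and 96.7% of them. Ccl2 was in 90.4% of Con cells and Ccl9 in 95.5%. After 4 h of LPS each of Ccl2, Ccl3, Ccl4 and Ccl9 was in 100% of cells in both arms. These 4 genes were found together in 34.8% of Con cells and, with Veh, in 87.0% at 0 h and 99.8% at 1 h. A median cell held 3 of the 7 messages in Con, 4 in Veh.LPS.0, 5 in Veh.LPS.4 and 6 in DHA.LPS.4.

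Being found in a cell says little of how much it held, and before LPS the spread between cells was wide. In Veh.LPS.0 the median cell had 6 Ccl2 UMIs per 20000, the 90th percentile cell 43 and the highest 390. The top 10% of cells held 55.1% of all Ccl2 UMIs there and 51.3% in Con. The coefficient of variation (CV, SD over mean) across cells was 1.80 in Con, 1.87 in Veh.LPS.0, 0.923 in Veh.LPS.1 and 0.645 in Veh.LPS.4, and with DHA 1.96, 1.03 and 0.551. For Ccl3 it was 2.87 in Con, 1.44, 0.680 and 0.629 for the Veh series and 1.42, 0.790 and 0.614 for the DHA series. For Ccl4 it was 3.30 in Con, 1.30, 0.672 and 0.587 for the Veh series and 1.29, 0.805 and 0.662 for the DHA series. These 3 genes thus became more even from cell to cell with LPS, most of the fall having taken place by 1 h.

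Ccl9 was the most even member in 4 of the 7 libraries, with a CV of 1.55 in Con, 0.965, 0.974 and 0.527 for the Veh series and 1.01, 1.25 and 0.570 for the DHA series. Its fall came after 1 h, as did its rise in level. Ccl7 had a CV of 4.76 in Con, 4.86, 3.099 and 1.47 for the Veh series and 3.89, 3.06 and 1.35 for the DHA series. At 4 h 9.26% of Veh cells and 2.89% of DHA cells still had no Ccl7 UMI at a mean of 20.5 and 32.8 per cell, while its highest cells held 234 and 314. Ccl5 had a CV of 20.6 in Con, 21.2, 17.2 and 4.08 for the Veh series and 9.79, 8.68 and 3.79 for the DHA series. Ccl6 stayed uneven, with CVs of 6.35 in Veh.LPS.4 and 8.20 in DHA.LPS.4.

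By the Fano factor, the variance over the mean, which is 1 for counts that scatter only by sampling, the members abundant enough to be ranked were among the most variable genes of the cells. Only genes with a mean of at least 1 UMI per thinned cell were ranked, which leaves out Ccl6 in all 7 libraries, Ccl5 in Con, Veh.LPS.0 and Veh.LPS.1, and Ccl7 in Con and Veh.LPS.0. In Veh.LPS.4 it was 97.6 for Ccl3, 94.9 for Ccl2, 75.3 for Ccl4 and 60.2 for Ccl5, places 5, 6, 8 and 13 among 2454 genes whose median was 1.31. In Con it was 46.0 for Ccl4, 45.4 for Ccl2, 25.9 for Ccl3 and 15.5 for Ccl9, places 4, 5, 8 and 12 of 2964, with a median of 1.14. The Fano factor grows with the level, so its rise with LPS is no sign of greater unevenness, and a gene's place by it partly follows its level. By CV, Ccl2, Ccl3, Ccl4 and Ccl9 in Veh.LPS.4 lay below the median of 0.80 over the genes ranked. Ccl5 and Ccl7 lay above it. The CV falls as the level rises, so a place by CV also partly follows the level. Sampling alone at their means would give Ccl2, Ccl3, Ccl4 and Ccl9 CVs of 0.066, 0.064, 0.068 and 0.103. Their CVs were 0.645, 0.629, 0.587 and 0.527.

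**Figure D4:**
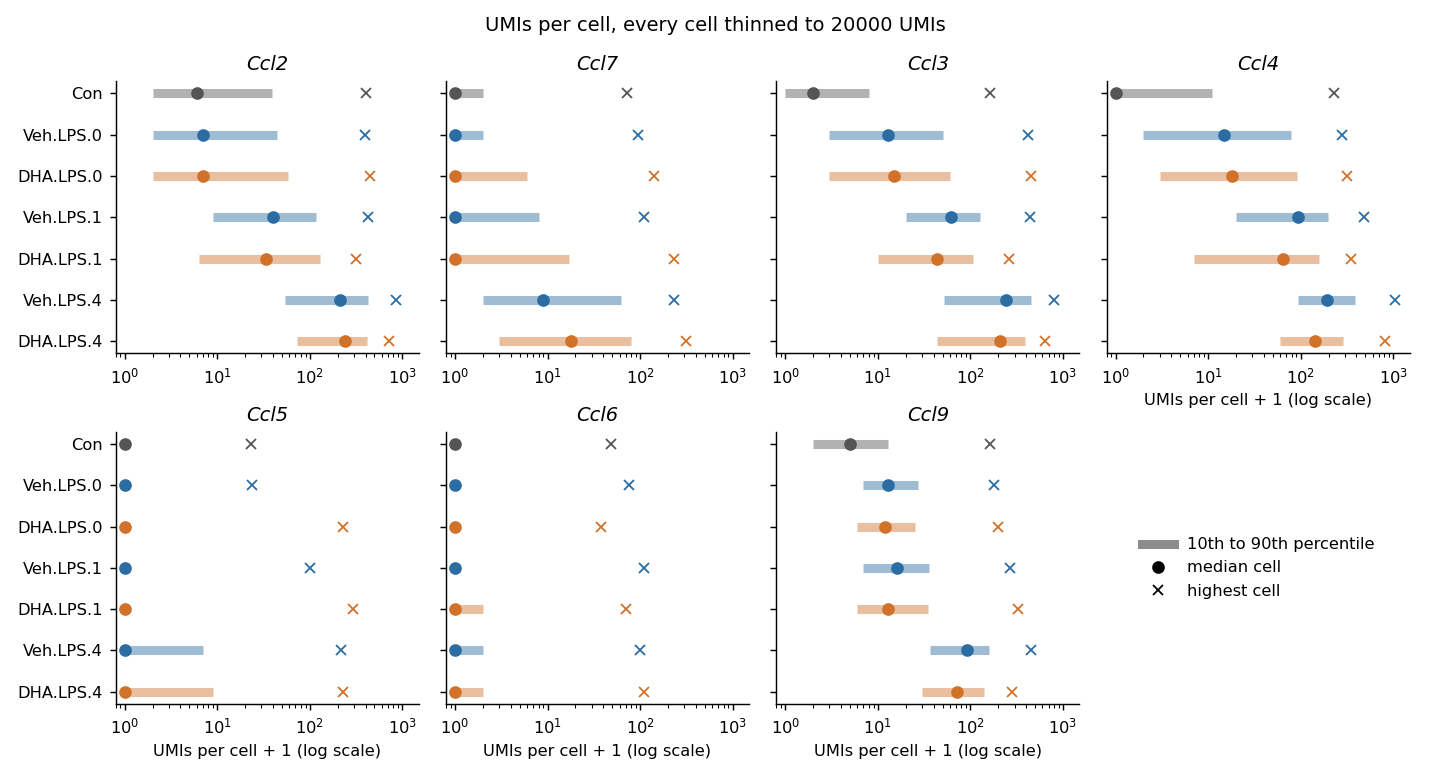
UMIs per cell plus 1 (log axis) for each chemokine and library, every cell thinned to 20000 UMIs; bars run from the 10th to the 90th percentile of cells, circles mark the median and crosses the highest cell. The bars of Ccl2, Ccl3, Ccl4 and Ccl9 move right with LPS. Those of Ccl2, Ccl3 and Ccl4 are narrower at 4 h than at 0 h, while the median cell of Ccl5 and Ccl6 has 0 UMIs in all 7 libraries.

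By the size of r across cells the members formed a group of 3, then Ccl7 and Ccl9, with mostly lower r for the sparse Ccl5 and Ccl6. Pearson's r across the cells of 1 library, on log2 of thinned UMIs plus 1, is given as a description over 692 to 3073 cells, which share a library and its depth. Ccl3 and Ccl4 had r between 0.71 and 0.84 in the 7 libraries, Ccl2 and Ccl3 between 0.56 and 0.75, and Ccl2 and Ccl4 between 0.53 and 0.71. Ccl2 and Ccl7 had r between 0.41 and 0.63. The RefSeq records of Ccl3 and Ccl4 overlap, and whether this bears on their r was not tested.

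Ccl9 went with the group before LPS and at 1 h and much less after 4 h. Its r with Ccl2 was 0.48 in Con and in Veh.LPS.0, 0.50 in DHA.LPS.0, 0.45 in Veh.LPS.1 and 0.51 in DHA.LPS.1, and 0.17 in Veh.LPS.4 and 0.22 in DHA.LPS.4. Ccl7 and Ccl3 had r of 0.43 in Con, 0.36 in Veh.LPS.0 and 0.41 in DHA.LPS.0. Their r was already lower in Veh.LPS.1, at 0.23, but 0.40 in DHA.LPS.1, and was 0.16 in Veh.LPS.4 and 0.19 in DHA.LPS.4. Ccl5 had r between -0.16 and 0.20 with every other member in every library. The r of Ccl6 with Ccl9 lay between 0.19 and 0.27 in the 7 libraries. In sparse genes such as Ccl5 and Ccl6 a low r may be set by the counts alone. In Veh.LPS.0 the 99th percentile of r over 6459 non-member genes was 0.056 for Ccl5 and 0.078 for Ccl6. Ccl5 had r of 0.106 with Ccl7, 0.083 with Ccl2 and 0.073 with Ccl4 there, but 0.051 with Ccl3 and with Ccl9. Ccl6 had 0.22 with Ccl9, 0.19 with Ccl7, 0.14 with Ccl2, 0.13 with Ccl4, 0.088 with Ccl3 and 0.067 with Ccl5. In Veh.LPS.4 these limits were 0.126 and 0.113. Ccl5 passed with Ccl4 only (0.143), and Ccl6 with Ccl9 (0.22) and Ccl7 (0.114).

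**Figure D5:**
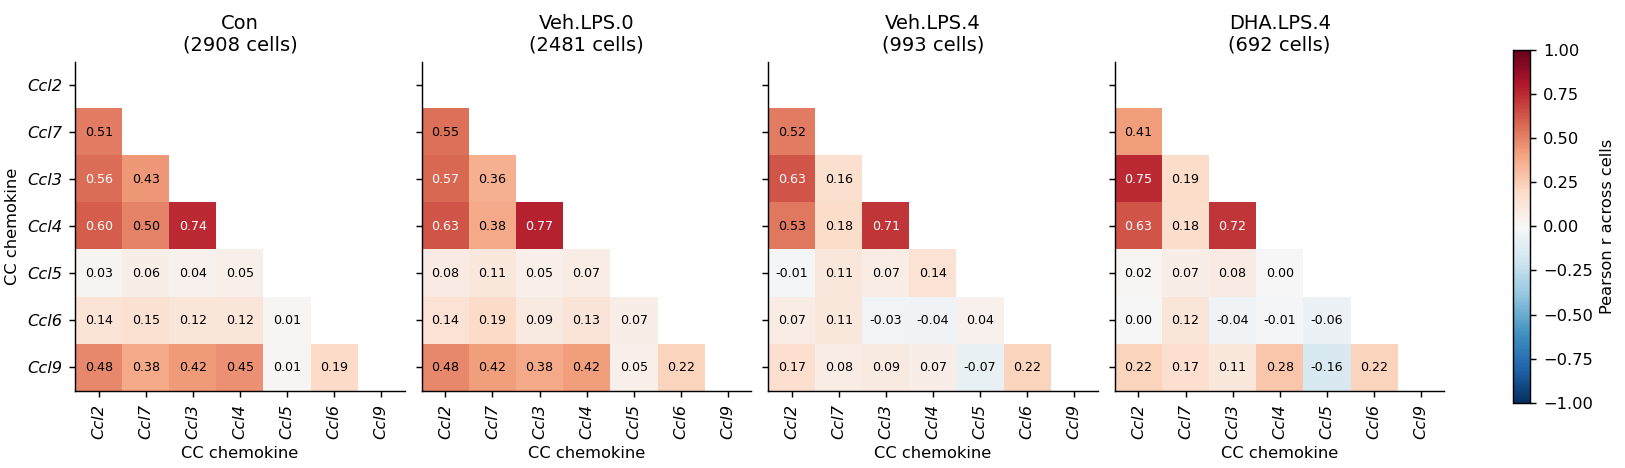
Pearson's r across cells between the chemokines in Con, Veh.LPS.0, Veh.LPS.4 and DHA.LPS.4, on log2 of UMIs thinned to 20000 per cell plus 1. Ccl2, Ccl3 and Ccl4 go together in all 4 libraries, r of Ccl9 with Ccl2, Ccl3 and Ccl4 is lower after 4 h of LPS, and the row of Ccl5 is near 0.

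Leaving out the members themselves, the genes whose counts went most with each member across the cells of the 4 h libraries differed by group. For Ccl3 they were Cxcl2 (r = 0.76), Csf3 (0.71) and Ptgs2 (0.57) in Veh.LPS.4, and Csf3 (0.80), Cxcl2 (0.77) and Tnf (0.55) in DHA.LPS.4. Cxcl2 encodes a neutrophil attractant, Csf3 the growth factor G-CSF, and Ptgs2 an enzyme of prostaglandin synthesis. For Ccl2 they were Csf3 (0.62), Cxcl2 (0.47) and Plaur (0.46) in Veh.LPS.4 and the same genes in DHA.LPS.4, with r of 0.69, 0.57 and 0.50. For Ccl4 they were Tnf (0.57), Cxcl2 (0.57) and Csf3 (0.54) in Veh.LPS.4 and the same 3 in DHA.LPS.4. Over 5353 genes in Veh.LPS.4, the 99th percentile of r was 0.22 for Ccl3 and 0.19 for Ccl2.

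The other members had other companions. For Ccl9 they were Lpl (0.53), Cd52 (0.48) and Cd9 (0.46) in Veh.LPS.4, and Cd14 (0.47), Stap1 (0.46) and Il1rn (0.42) in DHA.LPS.4. For Ccl7 they were Pmp22 (0.30) and Il1rn (0.29), with Pmp22 (0.33) and Il1rn (0.32) again in DHA.LPS.4. For Ccl6 no r with a non-member exceeded 0.22, and its r with Ccl9 was 0.22 in both 4 h libraries. For Ccl5 they were C130026I21Rik (0.31), Oasl1 (0.30) and Sp140 (0.30) in Veh.LPS.4, and Oasl1 (0.54), C130026I21Rik (0.48) and AC168977.1 (0.39) in DHA.LPS.4. Oasl1 encodes an antiviral protein induced by interferon.

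Set beside 8 interferon genes, Ccl5 went with most of them in the cells of DHA.LPS.0. There r was 0.72 with Rsad2, 0.72 with Ifit3, 0.71 with Cxcl10, 0.65 with Ifit1 and 0.62 with Oasl1. It was 0.52 with Isg15, 0.49 with Ifit2 and 0.32 with Irf7. These values rest on few cells, as 32 held a Ccl5 UMI and Rsad2 and Ifit3 were found in 1.00% and 1.43% of cells. Over the 8 genes r ran from 0.20 to 0.61 in Veh.LPS.1 and from 0.20 to 0.59 in DHA.LPS.1. At 4 h it ran from -0.02 to 0.30 in Veh and from 0.09 to 0.54 in DHA. Levels of these genes were higher in that library than in Veh.LPS.0, as with Oasl1 at 22.4 and 7.44 CPM and Ifit1 at 8.11 and 0.435 CPM. At 4 h they were the other way round, with Oasl1 at 93.6 CPM in DHA and 151 CPM in Veh and Ifit1 at 8.26 and 43.6 CPM, while Ccl5 itself had 274 and 190 CPM. Of these 8 genes, 5 could be counted at 4 h and all 5 were lower with DHA, where 2.42% of all genes were lower. Ifit1, Cxcl10 and Irf7 entered only through Veh.LPS.4, where they are high.

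Cells without a UMI of Mki67 and Top2a at the thinned depth held more of all 7 chemokines in Veh.LPS.0 and DHA.LPS.0 than all cells did. In Con they held more of each but Ccl5, which had 1.12 CPM in them and 1.29 CPM over all cells. These cells were 114 of 2908 in Con and had 260 CPM of Ccl7, 1735 CPM of Ccl2 and 522 CPM of Ccl3, against 39.7, 740 and 168 CPM over all cells. In Veh.LPS.0 they were 317 cells, with 195 CPM of Ccl7, 1830 CPM of Ccl2 and 2013 CPM of Ccl3. They made up 3.92% of the cells in Con, 12.8% in Veh.LPS.0, 24.6% in DHA.LPS.0, 13.9% in Veh.LPS.1, 24.4% in DHA.LPS.1, 51.0% in Veh.LPS.4 and 41.5% in DHA.LPS.4. Their share was thus higher in Veh.LPS.0 than in Con and at 4 h than at 0 h, little different between 0 and 1 h, and higher with DHA than with Veh at 0 and 1 h but lower at 4 h.

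Within these cells alone, for Ccl3 and Ccl4 the log2 ratio of DHA.LPS.0 to Veh.LPS.0 was -0.16 and -0.20 there, in place of 0.16 and 0.22. The ratio for Ccl7 at 1 h, 1.20 on the log2 scale, and at 4 h, 0.62, was as large as over all cells. After 4 h of LPS these cells no longer had more Ccl2, with 10256 CPM against 11723 CPM over all cells of Veh.LPS.4.

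Among the receptors for these ligands, Ccr1, which binds Ccl3, Ccl5, Ccl6 and Ccl9, was the most abundant of 15 receptor and decoy genes in each library. It reached 45.4 CPM in Con, 36.5, 37.8 and 109 CPM over the Veh series and 34.5, 40.5 and 88.4 CPM over the DHA series at 0, 1 and 4 h. Ccr2, the receptor of Ccl2 and Ccl7, reached 6.74 CPM in Con, 5.96, 28.8 and 12.3 CPM over the Veh series and 5.02, 19.2 and 8.16 CPM over the DHA series, with its highest level at 1 h in both arms. Ccrl2, which binds chemerin and does not signal, went from 1.64 to 23.3 CPM in Veh and from 2.43 to 20.9 CPM in DHA over 4 h. Of the 15 genes 3 could be counted at 4 h against 0 h in Veh and all 3 were higher, against 10.2% of all genes, but Ccr2 and Ccrl2 entered only through Veh.LPS.4. At 4 h 1 of 3 was lower with DHA, Ccr2, against 2.42% of all genes, and it too entered only through Veh.LPS.4.

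Of the 13 other CC chemokines looked for, only Ccl25 had more than 10 CPM in Con, with 11.8 to 14.9 CPM over the 7 libraries. Ccl12, a further ligand of Ccr2, went from 1.42 to 16.7 CPM in Veh and from 1.43 to 13.5 CPM in DHA over 4 h. Ccl22 had no UMI at 0 h in either arm but 10.96 CPM with Veh and 5.62 CPM with DHA at 4 h. Each of the other 10 had at most 5.27 CPM in any library. Ccl25 was thus above Ccl5 and Ccl6 in Con, whereas at 4 h each member was above every other CC chemokine.

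Of 19 regulators of these messages, 12 of 18 that could be counted were higher after 1 h of LPS in Veh and 0 lower, where 4.15% of all genes were higher and 4.24% lower. At 4 h against 0 h 11 of 19 were higher and 3 lower, where 10.2% of all genes were higher and 38.3% lower. Nfkbia, which encodes the inhibitor IκBα, went through 221, 1503 and 1002 CPM over the Veh series. Zfp36, whose protein binds and destabilises messages of this kind, had 38.7, 511 and 119 CPM in Veh and 40.7, 448 and 70.6 CPM in DHA. Both had their highest level at 1 h, where each member had its own at 4 h. Between DHA and Veh, 1 of 18 genes was higher at 0 h and 2 of 18 at 1 h, with 0 lower, against 1.08% and 1.33% of all genes higher. At 4 h 0 of 17 were higher and 3 lower, against 2.22% and 2.42%.

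Among 10 genes whose proteins cut or bind CC chemokines, Mmp12, a macrophage protease that cleaves several of these ligands, had 3.87, 0.719 and 28.7 CPM in Veh and 10.3, 22.2 and 45.7 CPM in DHA. Mmp12 was in too few cells to be counted between DHA and Veh. Of the 3 genes that could be, 0, 1 and 0 were higher with DHA at 0, 1 and 4 h and 0 were lower. Of all genes 1.08%, 1.33% and 2.22% were higher and 0.949%, 1.73% and 2.42% lower. Sdc4, a cell surface proteoglycan, had 196, 671 and 1034 CPM in Veh and 183, 603 and 914 CPM in DHA. Of the CXC chemokines set beside the family, Cxcl2 reached 4.96 CPM in Con, 112, 7543 and 13362 CPM over the Veh series and 235, 7011 and 11764 CPM over the DHA series. It passed all 7 members at 1 h and, in Veh, at 4 h.

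In the barcodes that the limits removed, the 7 genes held a larger share of UMIs than in the kept cells in 6 of 7 libraries. The share was 0.277% in Con, 0.798%, 1.79% and 3.96% for the Veh series and 0.655%, 1.69% and 5.16% for the DHA series at 0, 1 and 4 h. The exception was Veh.LPS.4, with 4.13% in the kept cells.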

How the data were processed

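Single-cell RNA of FLMs was captured with droplet chemistry that tags the 3′ end of each message. The authors deposited, for each of 7 libraries, counts of UMIs per gene and barcode from Cell Ranger (version 3.1.0 in the submitters' processing notes). The 2443 to 5722 barcodes per library had not passed the paper's own filter on cells. All barcodes means all that were deposited, and any earlier selection among barcodes was not examined. The 7 genes, the gene lists and the size limits were chosen with earlier results of these data known, so none is independent evidence.

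Barcodes with more than 20000 UMIs, at least 2000 genes and under 20% mitochondrial UMIs were kept. UMIs were summed per library and scaled to CPM. Ratios carry exact binomial 95% intervals on the summed UMIs, levels exact Poisson ones and shares of cells exact binomial ones; all cover counting error only. For shares, spread and correlations each cell was thinned without replacement to 20000 UMIs. Calls of higher or lower needed a difference past 1.5-fold and, at full depth, UMIs in 25% or more of the cells in 1 of the libraries compared. With 1 library per condition no test was run. Named genes were the 7 members, fixed lists and, for each member, the 3 non-members with the highest r across cells of each 4 h library. Genes most alike over the 7 libraries are not given, since the libraries fall into clusters by hour. The scripts were tested on simulated data. Python 3.11.15, numpy 2.4.6, scipy 1.17.1, R 4.3.3 and edgeR 4.0.16 (TMM factors only) were used. Gene positions are from RefSeq GRCm38.p6, the files being matched by symbol; sequences and promoter motifs were not analysed here. The values of 1 gene of the receptor list are not reported here. Alternatives were another UMI limit, a stricter mitochondrial limit, all deposited barcodes, other scalings, thinning, other call limits and 2 added after seeing the data.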

Additional observations from a re-analysis of the deposited data

Results flagged for a closer look

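The ratio of DHA to Veh of 3 members lay on opposite sides of 1 at different hours, with counting intervals that exclude 1 on both sides. With 1 library per condition this difference was not tested. For Ccl3 the log2 ratio at 1 h minus that at 0 h was -0.57, and at 4 h minus 0 h -0.38. For Ccl4 the same differences were -0.64 and -0.65. For Ccl6 the log2 ratio at 4 h minus that at 1 h was 0.84. For Ccl3 and Ccl4 the ratio above 1 at 0 h turned below 1 in cells without Mki67 and Top2a, with log2 ratios of -0.16 and -0.20. Over all barcodes the log2 ratios of Ccl3 were 0.19, -0.10 and 0.19 at 0, 1 and 4 h. Those of Ccl4 were 0.33, -0.06 and 0.00. For Ccl6, the ratio at 1 h was -0.09 on the log2 scale with a mitochondrial limit of 10% in place of -0.53, and 7 cells of Veh.LPS.1 and 4 of DHA.LPS.1 held 50% of its UMIs.

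The barcodes that the limits removed, which the comparisons leave out except where all barcodes were taken, held the 7 genes above the level of Con, where they were 0.277% of UMIs in removed barcodes. Their share there was 1.79% in Veh.LPS.1, 1.69% in DHA.LPS.1, 3.96% in Veh.LPS.4 and 5.16% in DHA.LPS.4.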

How the results depend on the processing

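The counts of members past 1.5-fold between LPS hours stayed within 1.5 times of the main count under every alternative run. In Veh.LPS.0 against Con the count of 4 became 2 in cells without Mki67 and Top2a, where the log2 ratio of Ccl7 turned to -0.41, as did that of Ccl6 in Veh.LPS.4 against Veh.LPS.1, to -0.51. For DHA against Veh at 0 h the count of 1 became 0 over all barcodes, with thinned cells, in cells without those 2 genes and at a 2-fold limit, and 2 without a limit on the share of cells, the last also at 1 h. At 4 h it became 0 over all barcodes, with TMM or median-of-ratios factors and at a 2-fold limit. It became 2 with a 10000 UMI limit, the mean of per-cell CPM, thinned cells and cells without Mki67 and Top2a. With thinned cells the cause at 0 h is the limit on the share of cells, since 24.8% of DHA.LPS.0 cells then held Ccl7; other causes were not tested. The rest of the 700 log2 ratios recomputed kept the sign of any called member. TMM factors moved the median log2 ratio of all genes in Veh.LPS.4 against Veh.LPS.0 from -0.36 to 0.07. For DHA against Veh, all barcodes moved it from -0.05, -0.05 and 0.08 at 0, 1 and 4 h to -0.23, -0.29 and -0.17. Depth limits Ccl5 and Ccl6, which were in few cells. No paired analysis was possible because each condition has 1 library and no test was made.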
